A study of Mus musculus with 6 samples.

Results

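The 32 genes described here encode the chaperones, stress sensors and degradation machinery of the endoplasmic reticulum (ER). They were taken by gene symbol from a fixed list, chosen with earlier results of these data known. All 32 were found among 55367 symbols in each library. They fall into 5 roles, namely 5 chaperones and glycoprotein folding factors, 6 co-chaperones and exchange factors, 3 response proteins of the lumen, 7 sensors, their proteases and Xbp1, and 11 genes of ER-associated degradation (ERAD). RNA was measured in 6 libraries of mouse pancreatic acinar cells, each made from 300 sorted GFP-positive cells. The labelled genotype of all 6 was Pdx1-Cre; Klf5-mCherry-CreERT2 with treatment none, so the labels give 1 group and no contrast, and the design text names the expression pattern of acinar cells as its subject. Pdx1-Cre acts in pancreatic progenitors, the genotype as labelled names no GFP reporter, and the labels name neither the age nor which libraries share an animal. The spread between libraries may therefore be technical.

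The acinar cell makes and exports digestive enzymes, and its ER folds a very large flow of secreted protein. The ATPase BiP, encoded by Hspa5, binds unfolded chains and is driven by J-domain partners and nucleotide exchange factors, while calnexin and calreticulin hold newly made glycoproteins. When unfolded protein builds up, the membrane sensors IRE1 (Ern1), PERK (Eif2ak3) and ATF6 start the unfolded protein response. IRE1 splices Xbp1 mRNA, PERK slows translation, and ATF6 is cut in the Golgi by the site-1 and site-2 proteases (Mbtps1 and Mbtps2) to release a transcription factor. Chains that fail to fold are drawn back through a membrane complex around the ubiquitin ligase HRD1 (Syvn1) and pulled out by the ATPase p97 (Vcp) for the proteasome. Counts per gene do not separate spliced from unspliced Xbp1 mRNA, so the activity of IRE1 was not read here.

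Promoter sequences show an element that part of the list shares. ATF6 and XBP1 act through short promoter elements, and 3 were searched on both strands of the 250 bases before and 50 bases after each start site in RefSeq promoters of GRCm38.p6. They were the ER stress response element (ERSE, CCAAT and CCACG with 9 free bases between them), ERSE-II (ATTGG and CCACG with 1 free base between them) and the UPR element (UPRE, TGACGTGG). CCACG or its complement lies in all 3, so matches can overlap, but no member held more than 1 kind. The promoters of 27 members were in the table, and Atf6, Hyou1, Manf, Sil1 and Derl1 were not. ERSE was found in 8 of the 27 (29.6%), namely Hspa5, Hsp90b1, Calr, Canx, Dnajc3, Creld2, Syvn1 and Derl3, and in 37 of 27025 genes (0.137%). ERSE-II was found in Herpud1 and Dnajb11, and in 12 of the 27025 genes (0.0444%). UPRE was found in Vcp and in 193 genes (0.714%). A match is a description of the letters and not a measured binding site. The stretches below are shown because they hold these matches upstream of the RefSeq start, with 20 bases on either side. The stretch of Hspa5 lies inside the gene span used for counting, which begins at base 34771970, before that RefSeq start. They run 5′ to 3′ on the gene's strand, with the fixed letters of the element in capitals and the element read on either strand.
Hspa5, chr2:34772005-34772063, forward strand: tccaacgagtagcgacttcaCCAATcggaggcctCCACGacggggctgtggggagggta
Hsp90b1, chr10:86705513-86705676, reverse strand, with 2 copies: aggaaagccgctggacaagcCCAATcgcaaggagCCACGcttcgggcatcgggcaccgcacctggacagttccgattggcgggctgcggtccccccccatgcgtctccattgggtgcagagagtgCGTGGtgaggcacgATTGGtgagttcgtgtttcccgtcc
Calr, chr8:84847055-84847113, reverse strand: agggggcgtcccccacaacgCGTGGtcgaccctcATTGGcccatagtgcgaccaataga
Canx, chr11:50325780-50325838, reverse strand: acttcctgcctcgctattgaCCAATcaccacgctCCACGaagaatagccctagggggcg
Dnajc3, chr14:118937807-118937865, forward strand: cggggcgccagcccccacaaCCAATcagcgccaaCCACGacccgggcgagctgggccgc
Creld2, chr15:88819500-88819558, forward strand: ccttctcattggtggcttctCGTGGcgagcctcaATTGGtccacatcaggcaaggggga
Syvn1, chr19:6046512-6046570, forward strand: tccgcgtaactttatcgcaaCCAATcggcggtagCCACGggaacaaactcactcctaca
Derl3, chr10:75893222-75893280, forward strand: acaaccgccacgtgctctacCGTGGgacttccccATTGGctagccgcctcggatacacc
Herpud1 (ERSE-II), chr8:94386357-94386407, forward strand: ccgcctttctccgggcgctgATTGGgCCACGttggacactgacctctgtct
Vcp (UPRE), chr4:43000594-43000641, reverse strand: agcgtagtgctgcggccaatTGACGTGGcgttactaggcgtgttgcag

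Depth and composition differed between the libraries. Totals ran from 4670819 to 7072270 counts, of which the 32 genes held 3724 to 11284, or 0.0797% to 0.160%. Exact Clopper-Pearson intervals at 95% were 0.0772% to 0.0823% for the lowest share and 0.157% to 0.163% for the highest, and they cover counting error only. The deposited library names carry a number that splits the libraries into replicates 1 to 3 (set A) and replicates 4 to 6 (set B), and what the number stands for is not given in the sources used here. Ribosomal RNA genes took 42.3% ± 4.34 of the reads counted in set A and 60.3% ± 0.524 of those in set B, and digestive enzyme genes took 43.9% ± 4.74 and 18.2% ± 4.6 (SD, n = 3 each). All 10 acinar markers were above 1 TPM (counts per exon length, scaled to the same total in each library), with a summed level of 358485 to 406653 TPM in set A and 122575 to 214823 in set B. The 8 islet markers summed to 9.18 to 39.7 TPM in set A and 40.5 to 2225 in set B, with the insulin genes high in replicates 4 and 6, and the 6 ductal markers to 68.4 to 101 and 50.8 to 171. Stellate, endothelial, myeloid, plasma and B cell, and erythroid lists each stayed under 40 TPM in sum. Of the islet markers Iapp was at 0 and of the plasma and B cell markers Mzb1, with 100% and 99.9% of their exon bases inside other genes. In libraries of whole cell pools, fewer cells of a type and less RNA per cell cannot be told apart.

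The ER quality control genes stood high among protein-coding genes. Of the 32, 17 (53.1%) had a mean of 10 TPM or more, against 3.02% of 21882 protein-coding genes, and 31 had 1 TPM or more, against 32.3%. Their median was 12.8 TPM, against 0.492 over protein-coding genes. None of the means reached 100 TPM, and the range ran from 0.666 TPM for Mbtps2 to 86.5 TPM for Herpud1. Counts covered whole gene spans with introns, so a level per exon length is too high for a gene whose long introns held reads. By gene span in place of exon length, 8 members were at 10 TPM or more.

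**Figure D1:**
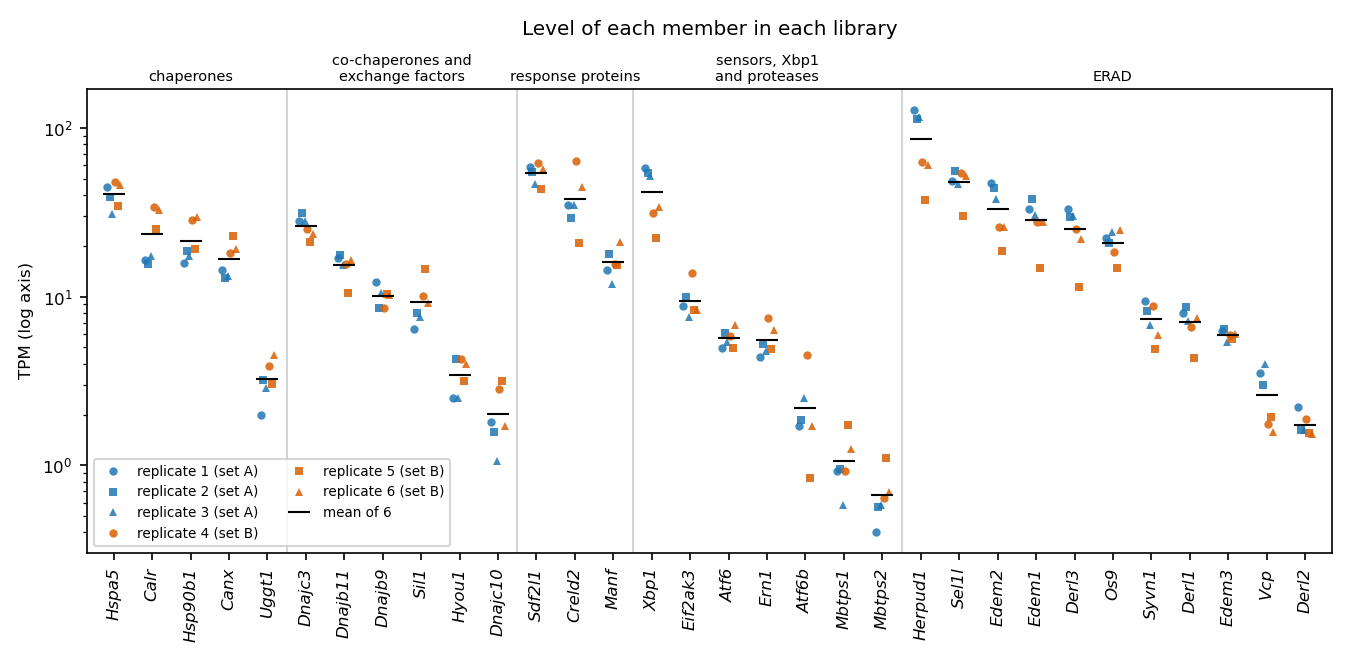
Level of each of the 32 genes in each of the 6 libraries in TPM on a log axis, by role, with a horizontal line at the mean and with blue for set A and orange for set B. Herpud1 has the highest mean, 86.5 TPM, and Mbtps2 the lowest, 0.666 TPM.

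Per exon length, BiP led among the chaperones. Hspa5 (chr2:34771970-34777547, forward strand) had a lowest, median and highest level of 31.0, 41.9 and 47.6 TPM, with a mean of 40.5 ± 6.78 (SD, n = 6). Calr, the soluble lectin chaperone calreticulin, had 15.6, 21.3 and 34.2 TPM (mean 23.6 ± 8.37, n = 6). Calr varied more than Hspa5, with replicates 4 and 6 above 30 TPM and set A below 18 TPM. Hsp90b1, which encodes the ER member of the HSP90 family (GRP94), ran from 15.8 to 29.5 TPM, and Canx, the membrane-bound lectin chaperone calnexin, from 12.9 to 22.9 TPM. Uggt1, the folding sensor that puts glucose back on unfolded glycoproteins for another round with the lectin chaperones, was lowest at 2.0, 3.12 and 4.50 TPM (mean 3.25 ± 0.863, n = 6). Within Hsp90b1, 60.8% of exon bases lie inside other annotated genes, where reads were largely uncounted. Of 1357 protein-coding genes with every exon base inside other genes, 91.9% had no counts, against 10.7% of 11829 with no overlap. Per exon length outside other genes, Hsp90b1 came to 46.6 TPM and Hspa5 to 34.6 TPM, so their order depends on the length used.

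The J-domain proteins and exchange factors ranged widely, with means below that of BiP. Dnajc3 (p58IPK; chr14:118937976-118981697, forward strand), a J-domain co-chaperone that also restrains PERK, had 21.2, 26.7 and 31.5 TPM (mean 26.3 ± 3.70, n = 6). Dnajb11 (ERdj3), a soluble J-domain partner of BiP, had 10.5, 16.1 and 17.7 TPM (mean 15.5 ± 2.57, n = 6), with replicate 5 alone below 15 TPM. Dnajb9 (ERdj4), which recruits BiP to IRE1, ran from 8.53 to 12.2 TPM. The exchange factor Sil1 ran from 6.43 to 14.6 TPM, highest in replicate 5, where an estimated 70.6% of its counts was background. The other exchange factor, Hyou1 (GRP170), ran from 2.49 to 4.29 TPM. Dnajc10 (ERdj5), a J-domain protein with thioredoxin domains that reduces disulfides in ERAD substrates, was lowest at 1.07, 1.75 and 3.17 TPM (mean 2.02 ± 0.804, n = 6). Per union exon length, Dnajc3 was the highest of this group in all 6 libraries.

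The small response proteins of the lumen were expressed at chaperone levels. Sdf2l1 (chr16:17130138-17132383, reverse strand), which joins ERdj3 in a complex that keeps BiP clients soluble, had 43.7, 56.0 and 61.8 TPM (mean 53.8 ± 7.14, n = 6). Creld2, a stress-induced protein with disulfide isomerase activity, had 20.8, 35.0 and 64 TPM (mean 38.1 ± 14.9, n = 6). Manf, a secreted BiP cofactor, had 11.9, 15.5 and 21.1 TPM (mean 16.1 ± 3.15, n = 6). In TPM, Sdf2l1 ranged 1.41-fold between libraries, whereas Creld2 ranged 3.07-fold, with replicate 4 highest and replicate 5 lowest.

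Among sensors, Xbp1 stood far above the rest. Xbp1 (chr11:5520659-5525893, forward strand), the transcription factor target of IRE1, had 22.2, 43.1 and 58.2 TPM (mean 42.0 ± 14.6, n = 6). The 3 libraries of set A lay at 52.0 TPM or more and those of set B at 34.2 TPM or less. Eif2ak3 (PERK) had 7.53, 8.60 and 13.8 TPM (mean 9.48 ± 2.27, n = 6). Atf6 ran from 4.95 to 6.80 TPM and Ern1 (IRE1 alpha) from 4.39 to 7.48 TPM. Atf6b, the paralog of Atf6, ran from 0.845 to 4.50 TPM on 5 to 42 counts per library. The proteases that cut ATF6 had the lowest means per exon length. Mbtps1 ran from 0.582 to 1.72 TPM, and Mbtps2 had 0.402, 0.612 and 1.11 TPM (mean 0.666 ± 0.238, n = 6). In replicate 5 both lay above Atf6b, and by principal transcript Mbtps1 came to 2.30 TPM against 2.10 for Atf6b. Mbtps2 rested on 18 to 24 counts per library, of which an estimated 28.7% was background.

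ERAD genes spanned the whole range of the list. Herpud1 (chr8:94386438-94395377, forward strand), a membrane protein that organises the HRD1 complex, had 37.3, 88.2 and 128 TPM (mean 86.5 ± 37.6, n = 6). Sel1l, the HRD1 adaptor that brings substrates to the ligase, had 30.1, 50.3 and 55.7 TPM (mean 47.8 ± 9.39, n = 6) and the most counts of all 32 genes, 552 to 1835 per library. Herpud1 separated the sets, with 3 libraries above 110 TPM and 3 below 65 TPM, while Sel1l in TPM was low in replicate 5 only. The mannose-trimming factors of the EDEM family had means of 33.3 ± 11.4 TPM for Edem2, 28.6 ± 7.71 for Edem1 and 5.93 ± 0.405 for Edem3 (SD, n = 6). The membrane proteins of the derlin family, part of the retrotranslocation channel, had means of 25.3 ± 7.85 TPM for Derl3, 7.04 ± 1.5 for Derl1 and 1.74 ± 0.263 for Derl2 (SD, n = 6). The lectin Os9, which hands trimmed glycoproteins to SEL1L, ran from 14.7 to 24.8 TPM and the ligase Syvn1 from 4.89 to 9.37 TPM. Derl2 was lowest, at 1.53, 1.62 and 2.21 TPM, and Vcp followed at 1.57, 2.46 and 3.96 TPM. Both values depended on the gene model, since Derl2 came to 3.40 TPM by its principal transcript, and 31.0% of the exon bases of Vcp lie inside another gene.

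Neighbours in the order of mean level were mostly not separated. Of 31 neighbouring pairs, 30 had overlapping ranges and 27 differed by less than 1 SD of their log2 ratio. In 3, Dnajb11 over Dnajb9, Ern1 over Hyou1 and Mbtps1 over Mbtps2, the higher gene was higher in all 6 libraries.

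Counts were compared with the background measured in genes that acinar cells are not known to use. Over 1765 olfactory and vomeronasal receptor genes, the rate was 26.6 to 111 counts for each Mb of span, except in replicate 5, where it reached 327. Of the 32 genes, 23 (71.9%) were above 3 times their expected background in every library, against 12.3% of protein-coding genes. The other 9, Uggt1, Sil1, Dnajc10, Atf6, Atf6b, Ern1, Mbtps1, Mbtps2 and Vcp, fell under that line in replicate 5 only. Without replicate 5, all 32 were above it in the remaining libraries. The share of protein-coding genes above that line was not computed without replicate 5, so this count has no comparison. Sil1 (22.0% of its counts), Mbtps1 (13.7%) and Dnajc10 (11.4%) had the next largest background shares after Mbtps2. Each of these genes, Mbtps2 included, had its highest TPM in replicate 5. In that library background was an estimated 86.3% of the counts of Mbtps2, 70.6% of Sil1, 42.4% of Mbtps1 and 37.1% of Dnajc10.

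**Figure D2:**
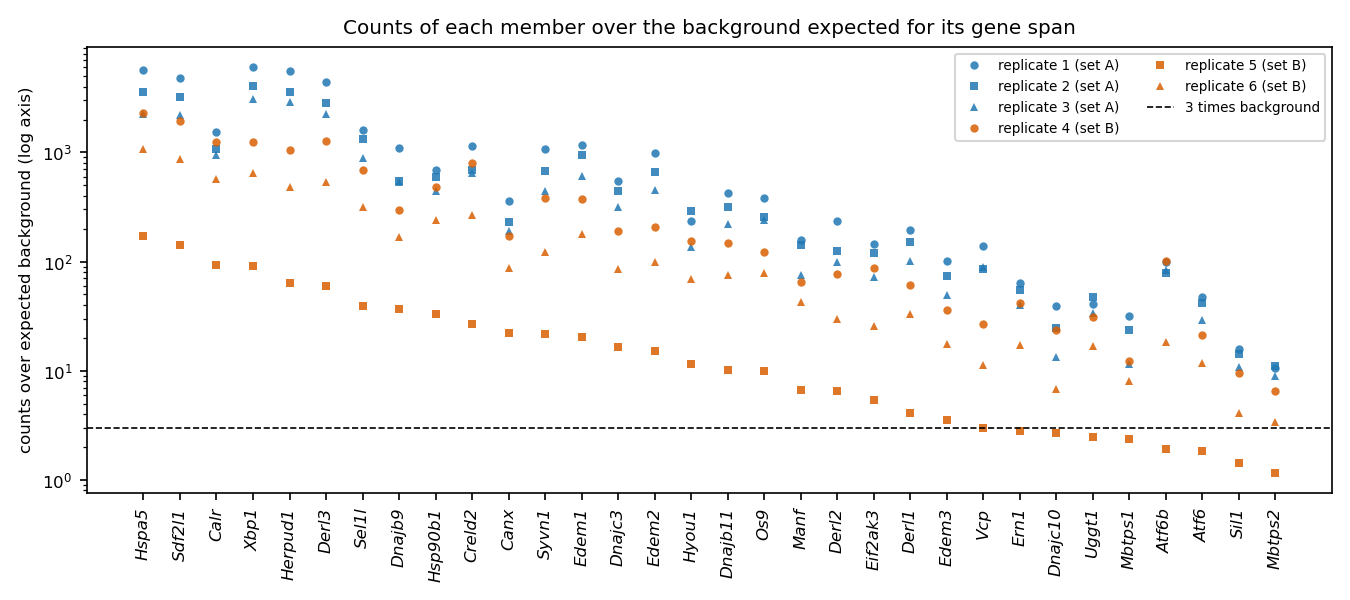
Counts of each gene in each library divided by the background expected for its gene span, on a log axis, with the dashed line at 3 times background. Replicate 5 lies lowest for every gene, and 9 genes fall below the line there.

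Genes of like role were compared within each library, where the ratio does not depend on the total. For 16 pairs the log2 ratio of counts per exon length (0.5 counts added) was tested with an exact two-sided sign-flip test, whose smallest p with 6 libraries is 0.031. In 15 of the 16 pairs all 6 libraries had the same sign, which gave that p and 0.0333 after Benjamini-Hochberg adjustment over the 16 pairs. The test takes the libraries as independent, although the labels do not name which share an animal. The pairs were chosen with earlier results of these data known.

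Members of 1 family differed to unlike degrees. Derl3 was above Derl2 by 3.79 ± 0.49 on the log2 scale (13.8-fold; SD, n = 6), and Derl1 above Derl2 by 1.99 ± 0.35. Edem1 was above Edem3 by 2.21 ± 0.42, whereas Edem1 and Edem2 differed by -0.20 ± 0.25, with Edem1 lower in 4 of 6 libraries and an exact p of 0.125. Sel1l exceeded its partner Syvn1 by 2.71 ± 0.25 (6.52-fold), with a range of 2.36 to 3.13. Dnajb9 exceeded Dnajc10 by 2.39 ± 0.64, and Dnajc3 exceeded Dnajb11 in every library, with a log2 ratio of Dnajb11 to Dnajc3 of -0.77 ± 0.17. Of the exon bases of Dnajb11, 38.1% lie inside another gene, and per exon length outside other genes this ratio was -0.0795, with replicates 4 and 6 above 0 and an exact p of 0.375.

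Among sensors, Xbp1 exceeded Atf6 by 2.82 ± 0.58 (7.04-fold), with set A at 3.15 to 3.54 and set B at 2.17 to 2.43. Atf6 exceeded Atf6b by 1.5 ± 0.72, and the log2 ratio of Ern1 to Eif2ak3 was -0.78 ± 0.22, so PERK mRNA was the more abundant in all 6 libraries. Mbtps1 exceeded Mbtps2 by 0.64 ± 0.39, although replicate 3 had nearly equal levels. That pair missed the threshold per exon length outside other genes (log2 ratio 0.16, exact p = 0.344) and by principal transcript (0.55, exact p = 0.0625). Sdf2l1 exceeded Manf by 1.76 ± 0.27, and Manf was below Creld2 by a log2 ratio of -1.18 ± 0.58, which by principal transcript was -0.53, with 1 library turned and an exact p of 0.0938. Calr exceeded Canx by 0.45 ± 0.32, and the log2 ratio of the exchange factors Hyou1 and Sil1 was -1.42 ± 0.45. Hspa5 exceeded Hsp90b1 by 0.94 ± 0.31, but per exon length outside other genes the log2 ratio became -0.42. The direction also turned by gene span for Hyou1 and Sil1 (3.84), Atf6 and Atf6b (-1.12), Derl1 and Derl2 (-0.14) and Edem1 and Edem2 (0.56), so these orders depend on the length used.

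**Figure D3:**
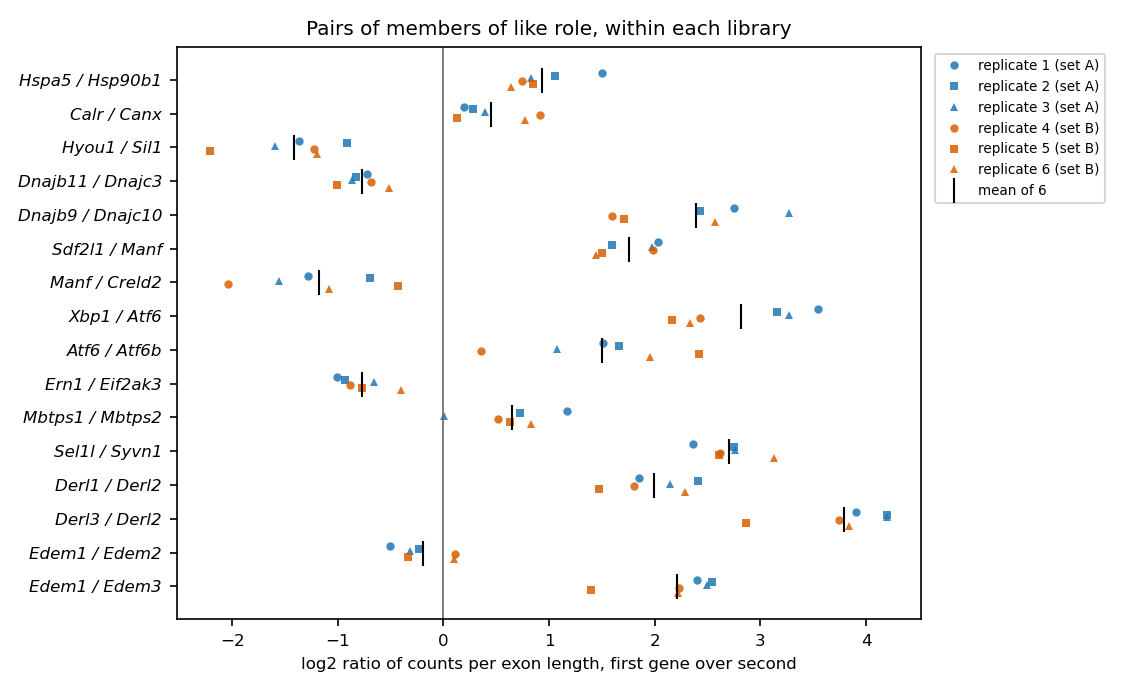
Log2 ratio of counts per exon length for 16 pairs of genes in each of the 6 libraries, with a vertical mark at the mean. All 6 points of 15 pairs fall on one side of 0, and only Edem1 over Edem2 has points on both sides.

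The library sets were then compared, as a possible batch that the labels do not make a group. The fitted differences of Xbp1 and all 11 ERAD genes lay below 0 in set B, and those of 4 of the 5 chaperones lay above 0. Of these 4, Hsp90b1, Canx and Uggt1 differed by less than their SE and turned below 0 with DESeq2 size factors, with DESeq2 and without the filter on low counts, which left Calr above 0. Levels here are CPM after TMM normalisation (TMM CPM), which scales each library by the trimmed mean of its log ratios to another. No member passed edgeR's quasi-likelihood test after Benjamini-Hochberg adjustment over 8723 genes, where 0.0115% of all genes were called higher and 0.0% lower. The 1 gene called was Top2a, named after its value was seen. At an unadjusted p under 0.05, 8 of the 32 were lower in set B and 0 higher, against 9.76% and 16.1% of all genes tested. All 32 passed the filter on low counts, 24 had a difference below 0, and their median log2 difference was -0.41. The median was -0.004 over all genes tested and -0.51 over the 552 protein-coding genes of 10 to under 100 TPM, of which 85.9% were below 0 and 30.6% were lower at an unadjusted p under 0.05. The 17 members in that range of level had a median of -0.61, with 14 below 0.

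**Figure D4:**
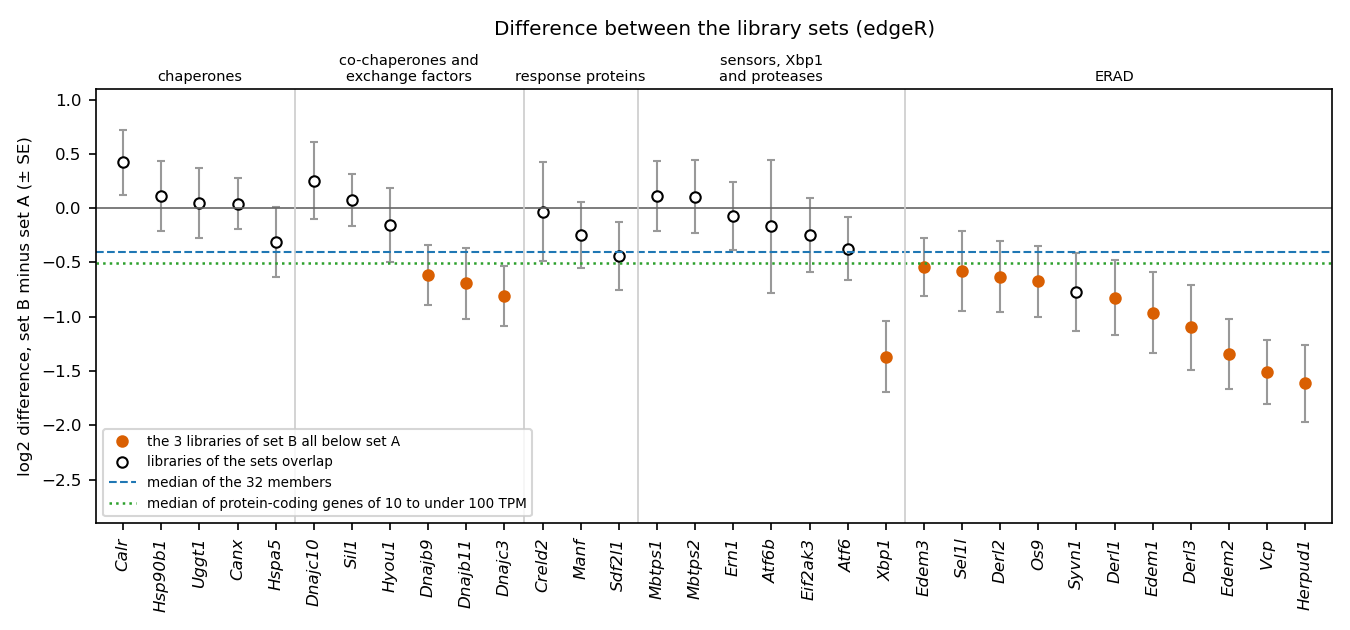
Log2 difference of set B minus set A for each of the 32 genes from edgeR, with bars of 1 SE, by role. Filled points are the 14 genes whose 3 libraries of set B all lie below those of set A, 10 of them ERAD genes.

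The libraries of the sets did not overlap for 14 members, all lower in set B, against 17.2% of all genes tested that were lower without overlap and 15.5% that were higher. These were Dnajb11, Dnajc3, Dnajb9, Xbp1 and 10 of the 11 ERAD genes, with Syvn1 the exception. None of the 5 chaperones and none of the 3 response proteins was among them. The share without overlap was not computed for genes of like level. Of protein-coding genes of 10 to under 100 TPM, 30.6% were lower at an unadjusted edgeR p under 0.05, against 9.76% of all genes tested. With 3 libraries against 3, an exact permutation test of 1 gene cannot go below 0.10.

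Herpud1 had 204, 167 and 175 TMM CPM in replicates 1 to 3 and 76.5, 31.0 and 70.6 in replicates 4 to 6. Its mean was 3.06-fold higher in set A (log2 difference -1.61, SE 0.36, edgeR adjusted p = 0.0874, range over all alternatives 0.000224 to 0.303). Every library of set A was more than double any of set B, yet the adjusted p missed the threshold. Vcp, whose product pulls ubiquitinated chains from the membrane, had 11.7, 9.12 and 12.3 TMM CPM against 4.48, 3.32 and 3.83, a 2.84-fold difference (log2 -1.51, SE 0.29). Xbp1 had 129, 110 and 108 against 53.3, 25.7 and 55.8 TMM CPM, a 2.58-fold difference (log2 -1.37, SE 0.33). Edem2 had 111, 96.4 and 83.9 against 46.7, 23.0 and 45.2 TMM CPM, a 2.54-fold difference (log2 -1.34, SE 0.32). The edgeR adjusted p was 0.0874 for each of Vcp, Xbp1 and Edem2, since the adjustment gives tied values to genes of nearby rank. Dnajc3 had 98.7, 102 and 92.6 against 68.2, 38.8 and 60.6 TMM CPM (log2 -0.81, SE 0.28, edgeR adjusted p = 0.112). Derl3 (log2 -1.10), Edem1 (-0.96) and Derl1 (-0.82) completed the 8.

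The chaperones showed other patterns. Calr had 32.3, 28.3 and 32.4 TMM CPM in set A and 51.6, 25.7 and 47.2 in set B (log2 0.42, SE 0.30, edgeR adjusted p = 0.408). Replicate 5 was the lowest of all 6 libraries for Calr, and replicates 4 and 6 were the highest. Hspa5 had 130, 103 and 84.1 against 105, 52.1 and 97.7 TMM CPM (log2 -0.31, SE 0.33), and the sets overlapped. Creld2 had 32.6, 25.1 and 30.6 against 45.8, 10.1 and 30.5 TMM CPM (log2 -0.03, SE 0.45). Sel1l, the most counted gene and an ERAD gene, had 282, 300 and 254 against 243, 91.5 and 224 TMM CPM (log2 -0.58, SE 0.37), without overlap. For 27 of the 32 genes, replicate 5 was the lowest library on this scale, and it also had the highest background and the smallest total.

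**Figure D5:**
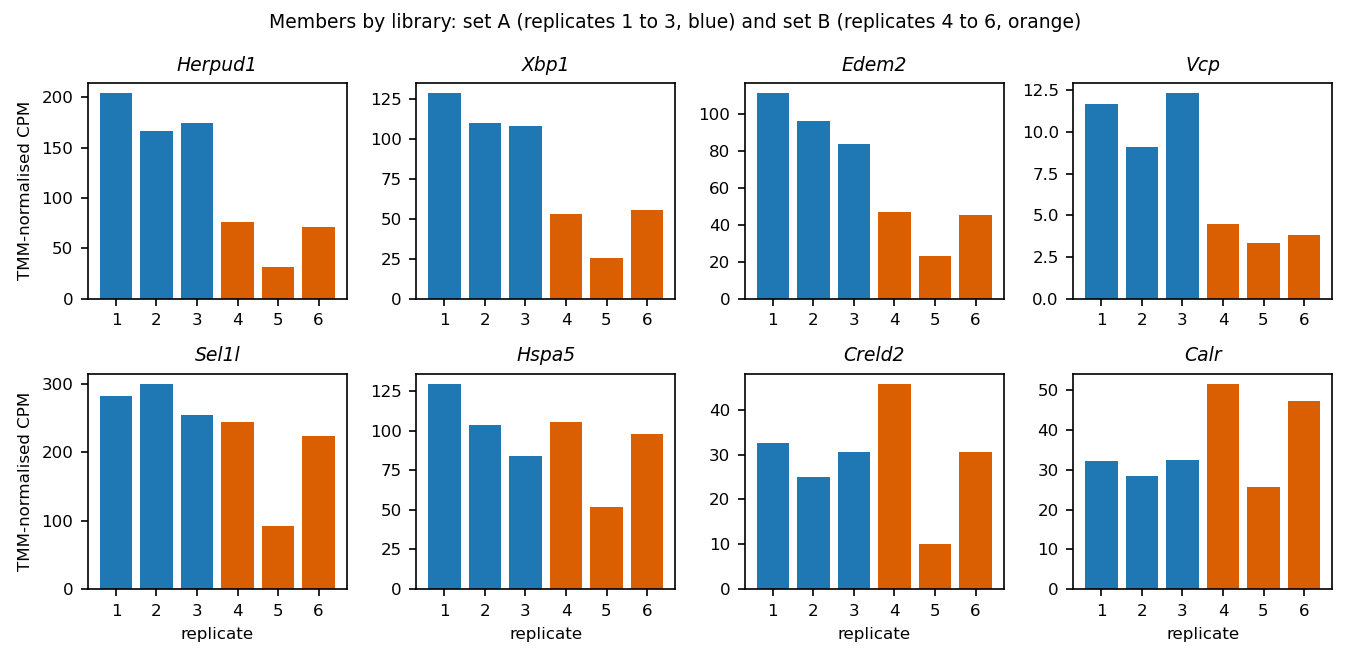
TMM CPM of 8 genes in each library, blue for set A and orange for set B, with bars starting at 0. Herpud1, Xbp1, Edem2, Vcp and Sel1l are lower in all 3 libraries of set B, Sel1l most so in replicate 5, and Calr is highest in replicates 4 and 6.

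The calls turned on the libraries, the filter and the tool. Without replicate 5, edgeR called 7 members lower in set B (Herpud1, Vcp, Xbp1, Edem2, Edem1, Derl3 and Dnajc3) and Calr higher, with 4.04% of all genes called higher and 4.07% lower. Without replicate 4 it called 6 lower (Herpud1, Vcp, Xbp1, Edem2, Derl3 and Syvn1), with 16.9% and 5.72% of all genes. Without replicate 1, 2, 3 or 6 it called none. With all 6 libraries, DESeq2 called 7 lower, the same 7 as edgeR without replicate 5, with 5.81% of all genes called higher and 2.44% lower. Without a filter on low counts, edgeR called Herpud1, Vcp, Xbp1 and Edem2 lower, with 2.65% of all genes higher and 0.682% lower. Ribosomal RNA, enzyme and islet marker levels and background also moved with the sets, as given above, and their part in these differences was not tested.

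The balance inside the list differed between the sets. Of the summed TPM of the 32 genes, ERAD genes made up 49.5%, 49.1% and 49.7% in replicates 1 to 3 and 37.1%, 33.3% and 38.3% in replicates 4 to 6. Chaperones made up 13.5%, 13.3% and 13.2% against 20.5%, 24.0% and 21.4%. Response proteins made up 15.0% to 15.6% against 18.3% to 21.9%, and sensors with Xbp1 11.5% to 11.7% against 9.66% to 10.1%. None of these 4 roles overlapped between the sets, while the shares of co-chaperones did. The shares of all roles add up to the whole in each library, so a fall in 1 role raises the others. They are not separate results, and no such shares were computed for other gene groups.

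Members were also set against the counts of Hspa5 in the same library, a ratio free of any scaling that was chosen after the values were seen. Of the other 31 members, 11 were lower in set B without overlap and 1, Calr, was higher, against 8.11% and 14.6% of 8722 genes. These shares were not computed for genes of like level. Of the 14 members without overlap in TMM CPM, 9 were also lower on this ratio, while Sel1l, Os9, Edem3, Derl2 and Dnajb9 overlapped, and Syvn1 and Sdf2l1 were lower on the ratio only. The ratio of Herpud1 to Hspa5 was 1.58, 1.61 and 2.08 in set A and 0.726, 0.596 and 0.723 in set B. For Xbp1 it was 0.994, 1.07 and 1.29 against 0.506, 0.494 and 0.571, and for Edem2 0.859, 0.932 and 0.998 against 0.443, 0.443 and 0.462. For Calr it was 0.249, 0.274 and 0.385 against 0.490, 0.494 and 0.483. On this ratio replicate 5 lay near replicates 4 and 6 for these 4 genes, and none of them overlapped between the sets. For other members replicate 5 stood apart from replicates 4 and 6. Creld2 was at 0.194 there against 0.434 and 0.312, Canx at 0.736 against 0.422 and 0.461, and Edem1 at 0.656 against 0.890 and 0.923.

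Other genes of ER folding, the unfolded protein response and ERAD were counted beside the list. Of 68 such genes, all were found, 58 passed the filter on low counts, 53 had a mean of 1 TPM or more and 12 had 10 TPM or more. The highest were P4hb, protein disulfide isomerase, at 265 ± 31.7 TPM, Selenos, a partner of the derlins and p97, at 40.4 ± 3.59, Ero1b, an oxidase that recharges the isomerases (Ero1lb in the files), at 24.1 ± 2.65, the isomerase Pdia6 at 22.3 ± 2.14, and Atf4, the transcription factor downstream of PERK, at 16.6 ± 5.37 (SD, n = 6). At the low end, Cdnf, the paralog of Manf, had a mean of 0.0407 TPM, and Rnf139 and Erlec1 were at 0. Of the exon bases of Rnf139 and Erlec1, 98.6% and 100% lie inside the spans of other genes, where reads were largely uncounted. Between the sets, edgeR called 0 of the 58 in either direction, 8 were lower and 1 higher at an unadjusted p under 0.05, against 9.76% and 16.1% of all genes tested, and their median log2 difference was -0.42. Atf4 had a log2 difference of -1.12 (SE 0.39, edgeR adjusted p = 0.115).

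The promoter groups were set beside the levels as a description. The 10 members with ERSE or ERSE-II had a median of 24.5 TPM and ran from 7.34 TPM for Syvn1 to 86.5 TPM for Herpud1. The 17 members in the table with neither had a median of 5.93 TPM and ran from 0.666 to 53.8 TPM, so the groups overlapped. Between the sets, 4 of the 10 and 9 of the 17 were lower in set B without overlap, against 17.2% of all genes tested. That share was not computed for genes of like level. Hspa5, Calr and Derl3 all hold ERSE, and their log2 differences between the sets were -0.31, 0.42 and -1.10.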

How the data were processed

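Reads of 6 libraries were trimmed with Trim Galore 0.6.4, checked with FastQC, aligned with STAR 2.7.9a to mm10 and counted with featureCounts, with SAMtools also used, per the submitters' processing notes. The deposited values are raw counts per symbol, and the deposited Length of the 55253 symbols with 1 interval equals the gene span, so counts cover introns. The annotation release, strand setting and handling of multiply aligned reads are not given in the sources used here. The labels name genomic DNA as the molecule although title and protocol describe RNA-seq with 12 cycles of preamplification.

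TPM used union exon lengths of GENCODE M21 (99.99% of counts) and all genes in the total. Expected background was the rate over genes named Olfr, Vmn1r and Vmn2r (13.5 Mb, 7904 counts) times the gene span. edgeR 4.0.16 compared the sets by its quasi-likelihood test after filterByExpr and TMM, with Benjamini-Hochberg adjustment and a threshold of 0.05. Alternatives were DESeq2 1.42.0, its size factors in edgeR, no filter, limma 3.58.1 for pairs, other lengths, totals and pseudocounts, and each library left out; the script was tested on simulated data. Exon length outside other genes and principal transcript length were added after the data were seen. All replicates differed beyond sampling noise. The members and lists, and so the pairs and tests, were chosen with earlier results of these data known. All 32 members are named; values in full go to the 2 highest and the lowest of each role, the genes of pairs discussed and the 5 with the smallest p between sets, and among pathway genes to the 5 highest and 3 lowest.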

Additional observations from a re-analysis of the deposited data

Results flagged for a closer look

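In 5 of 48 measures tested (32 levels and 16 pairs), replicate 5 lay apart below the other 5 libraries by Dixon's criterion, where chance gives about 1 in 20 groups. The level of Dnajb11 was 10.5 TPM in replicate 5, against 15.4 to 17.7 TPM in the others. Sel1l was at 30.1 TPM there, against 46.3 to 55.7, and Edem1 at 14.9 TPM, against 27.8 to 37.7. The log2 ratio of Derl3 to Derl2 was 2.86, against 3.74 to 4.2, and that of Edem1 to Edem3 was 1.40, against 2.22 to 2.54. Replicate 5 had the smallest total (4670819 counts) and the highest background (327 counts per Mb of gene span).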

How the results depend on the processing

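Leaving out 1 of 6 libraries cannot move a mean by 1 SD, so that check could not show whether the levels are stable. All 32 levels moved by more than 1 SD when ribosomal RNA was left out of the total, which put Herpud1 above 100 TPM (1 member). By gene span, 8 members were at 10 TPM or more. The pairs that turned were Hspa5 to Hsp90b1 (log2 -0.42, exon length outside other genes) and, by gene span, Hyou1 to Sil1 (3.84), Atf6 to Atf6b (-1.12), Derl1 to Derl2 (-0.14) and Edem1 to Edem2 (0.56). With 5 libraries the smallest exact p is 0.0625, so no count of pairs was possible with a library left out. Called between the sets were 1 gene, 0 members and 0 pathway genes; DESeq2 called 789, 7 and 1, edgeR without a filter 993, 4 and 2, and edgeR with 1 library left out 0 to 2217, 0 to 8 and 0 to 3. DESeq2 size factors moved the median of all genes to -0.15. Members near 0 changed sign. With DESeq2 size factors in edgeR, with DESeq2 and without a filter, the log2 differences were -0.00505, -0.00511 and -0.094 for Hsp90b1, -0.10, -0.10 and -0.23 for Canx, -0.0785, -0.0785 and -0.17 for Uggt1, -0.0737, -0.0738 and -0.21 for Sil1, -0.0468, -0.047 and -0.19 for Mbtps1 and -0.0449, -0.0456 and -0.20 for Mbtps2, with -0.0276 for Dnajc10 without a filter. With 1 library left out they ran from -0.16 to 0.38 for Hsp90b1, -0.13 to 0.0902 for Canx, -0.18 to 0.29 for Uggt1, -0.46 to 0.0718 for Hyou1, -0.0825 to 0.15 for Sil1, -0.10 to 0.44 for Dnajc10, -0.63 to 0.35 for Creld2, -1.27 to 0.25 for Atf6b, -0.44 to 0.17 for Ern1, -0.20 to 0.16 for Mbtps1 and -0.11 to 0.15 for Mbtps2. The cause was not tested. No paired analysis was possible because the labels give 1 group.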
